A study of Homo sapiens with 4 samples.

Results

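HMOX1, a group of NRF2 target genes and the ferritin genes of iron storage were followed through 4 RNA libraries of human multiple myeloma cells. The group holds 10 genes of the 60612 rows in each expression table, taken by gene name: HMOX1, NQO1, GCLM, GCLC, TXNRD1, TXN, SRXN1, FTH1, FTL and NFE2L2. The cells came from H929 or KMS28BM, cell lines of this plasma cell cancer. For either line the labels give 1 library before and 1 library after sorting, which the title ties to a microfluidic chip, and no other treatment or genotype. The series title appears to call the libraries labelled after sorting the unsorted ones. The sample labels are followed here, and under the title's reading every direction below would be the opposite.

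NRF2, encoded by NFE2L2, is a transcription factor that the adaptor KEAP1 holds at a low level by marking it for degradation. When electrophiles or oxidants modify KEAP1, NRF2 accumulates, pairs with a small MAF protein and binds antioxidant response elements in its target genes; BACH1 competes for the same elements and is released from them by heme. HMOX1 encodes heme oxygenase 1, which opens heme into biliverdin, carbon monoxide and iron, and the freed iron is stored in ferritin shells built from heavy (FTH1) and light (FTL) chains. Myeloma cells make large amounts of secreted protein, and the disulfide bonding in that work is a source of oxidants.

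Levels are given in FPKM, which divides fragments by length and by library size, so that genes can be compared. There was 1 library per group and so no replicate check within a line. Depth, estimated from the smallest step between values, was 24.8 and 22.8 M (mega) fragments in H929 before and after sorting and 21.2 and 23.4 M in KMS28BM. Intervals in brackets are exact 95% counting intervals on fragments estimated from that depth, and they cover counting error only. All 10 plasma cell markers reached 1 FPKM in every library. Their summed level was 2098 FPKM before and 1120 after sorting in H929, and 2025 and 3042 FPKM in KMS28BM. JCHAIN was the largest part of these sums, at 1142 and 589 FPKM in H929 and 1422 and 2431 FPKM in KMS28BM. Of the 10 markers, 9 were lower and 1 higher after sorting in H929, and 3 were lower and 7 higher in KMS28BM. Heme oxygenase and ferritin are also abundant in macrophages, and ferritin in red cell precursors. Of 9 macrophage and monocyte markers CD68 alone reached 1 FPKM, their summed level was 11.4 and 12.1 FPKM in H929 before and after sorting and 3.21 and 2.67 in KMS28BM, and CD163 and MARCO were at the floor of the tables in all 4 libraries. None of 7 erythroid markers reached 1 FPKM in any library, and ALAS2 and SLC4A1 were at the floor throughout.

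Sequence elements are shown first, because the antioxidant response element is what NRF2 and BACH1 compete for. The core of the antioxidant response element, TGACNNNGC, was looked for on both strands in RefSeq windows of 250 bases before to 50 after each gene's start (GRCh38.p14). Windows were found for 8 of the 10 genes, all but HMOX1 and FTH1. GCLM and TXNRD1 held the core, in 3 of the group's 10 windows, against 13.3% of all 35116 windows. Bases outside the windows were not searched, so a gene without a match may still hold the element. Each line below gives the bases around a match, 5′ to 3′ on the gene's strand, with the core in capitals. The match of GCLM lies 34 bases before the start and reads TGACTAAGC on the opposite strand. TXNRD1 has a match 99 bases before its upstream start, and another, on the opposite strand, 102 bases before its downstream start. A further match near the upstream start reads TGACGGAGC on the opposite strand, 8 bases before that start, and is not printed because the bases around it run past the start.
GCLM (chr1:93909431-93909489, minus strand): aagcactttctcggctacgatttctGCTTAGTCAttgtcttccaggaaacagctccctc
TXNRD1, upstream start (chr12:104215655-104215713, plus strand): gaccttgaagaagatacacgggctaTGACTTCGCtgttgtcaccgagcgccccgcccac
TXNRD1, downstream start (chr12:104286905-104286963, plus strand): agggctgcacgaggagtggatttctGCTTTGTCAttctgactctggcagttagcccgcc

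Ferritin messages carry a different element, the iron-responsive element, a hairpin in the 5′ untranslated region that iron regulatory proteins bind to block translation when iron is scarce. A hairpin with the loop CAGTGN, a bulged C and a paired stem of 5 bases was found in that region of 21 of 18882 principal coding transcripts (0.111%) of GENCODE release 29, and FTH1, FTL and the iron exporter gene SLC40A1 were among them. The 30 bases around the ferritin elements are shown with the loop in capitals (GRCh38). The element acts on translation, which RNA levels do not read.
FTH1 (chr11:61967574-61967603, minus strand): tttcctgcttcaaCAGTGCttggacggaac
FTL (chr19:48965334-48965363, plus strand): tctcttgcttcaaCAGTGTttggacggaac

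HMOX1 (ENSG00000100292) had the ratio farthest from 0 in the group on the scale with 1 added. In H929 it stood at 136.7 FPKM (133.3 to 140.2) in the library labelled before sorting and at 40.3 FPKM (38.4 to 42.3) in that labelled after, 3.39-fold lower. In KMS28BM it stood at 2.90 FPKM (2.39 to 3.49) before and 2.304 FPKM (1.87 to 2.81) after. The H929 libraries lie far apart and the KMS28BM libraries have overlapping counting intervals. HMOX1 was thus an abundant transcript in H929, above 97.5% of the genes measured before sorting and 91.1% after, and a low one in KMS28BM, above 40.9% and 27.8%. The H929 level was 47.1 times the KMS28BM level before sorting and 17.5 times after; no source used here says whether the tables of the lines were normalized together.

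On the scale used for all genes, the log2 ratio of FPKM plus 1 for after over before sorting, HMOX1 was at -1.74 in H929 and -0.24 in KMS28BM. Of the 11083 genes measured in H929, those at 1 FPKM or more in either library, 0.514% had a lower ratio. In H929 GC-rich transcripts had higher ratios, and HMOX1, with a GC content of 58.1%, lay on the other side of that trend. Once a trend on GC content and transcript length had been taken out, its ratio was -1.97 in H929, and -0.03 in KMS28BM. The authors' deposited table gives HMOX1 in H929 a p-value of 0.0162 and a q-value of 0.4496 and marks it as significant, a mark that follows p under 0.05 in every row. HMOX1 shared 0.458% of its 50-base words with other genes. The summed plasma cell markers were also lower after sorting in H929, with a median ratio of -0.61 over the 10, and IRF4, a transcription factor of plasma cells, stood at 259.6 and 55.1 FPKM; their part in the HMOX1 result was not tested.

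**Figure D1:**
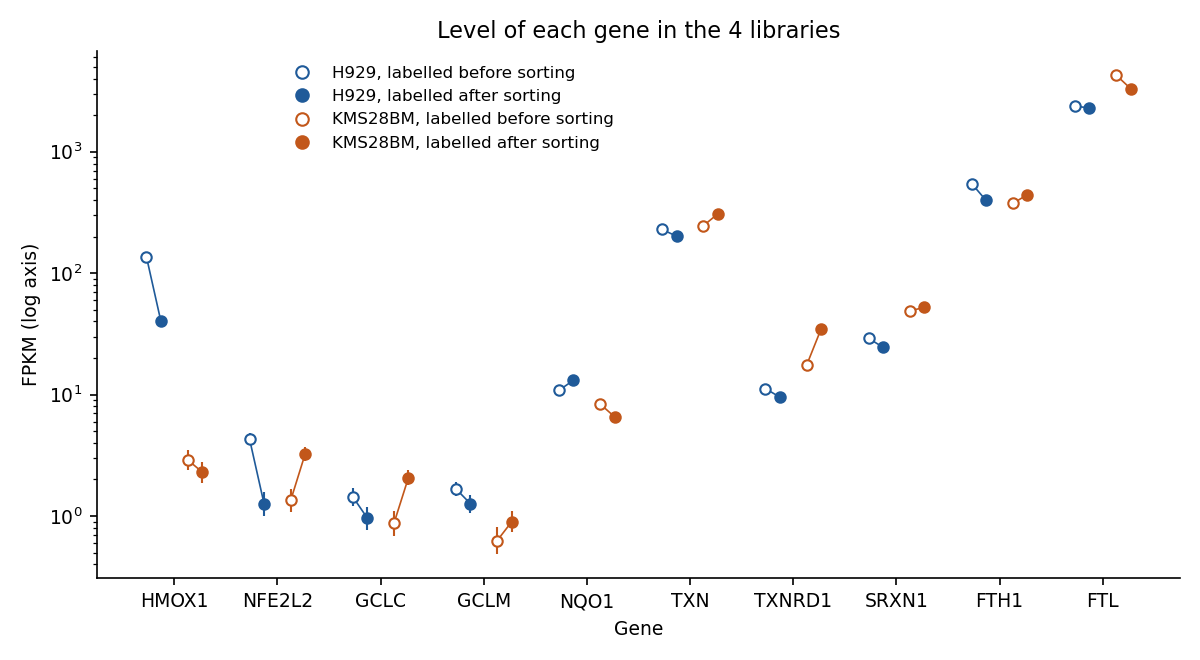
FPKM (log axis) of the 10 genes in the 4 libraries, H929 in blue and KMS28BM in orange, open points labelled before and filled points labelled after sorting, with exact 95% counting intervals that are often smaller than the point. HMOX1 lies between 40.3 and 136.7 FPKM in H929 and between 2.304 and 2.903 in KMS28BM, while FTL lies between 2287 and 4280 FPKM.

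NFE2L2 (ENSG00000116044), the gene of NRF2 itself, was lower after sorting in H929 and higher in KMS28BM, as were 7 of the 10 genes and 41.6% of the 9261 genes measured in both lines. The 7 include GCLM, which did not reach 1 FPKM in KMS28BM. With the GC and length trend removed, 4 of the 10 genes and 28.7% of the genes measured in both lines had these directions. The level of NFE2L2 was 4.29 FPKM (3.83 to 4.81) before and 1.27 FPKM (1.003 to 1.57) after sorting in H929. In KMS28BM it was 1.36 FPKM (1.08 to 1.69) before and 3.27 FPKM (2.85 to 3.74) after. The level was low in all 4 libraries, and the higher library of each line was the one labelled before in H929 and the one labelled after in KMS28BM. The FPKM were 3.39-fold lower and 2.41-fold higher, and on the scale with 1 added the ratios were -1.22 and 0.86; the difference between the lines was not tested. With the GC and length trend removed they were -0.997 and 0.47. In the authors' deposited table the H929 row is marked, with a p-value of 0.0171 and a q-value of 0.4626, and the KMS28BM row is not, with a p-value of 0.1048.

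Some NFE2L2 exons overlap, on the opposite strand, exons of AGPS, which encodes an enzyme of ether lipid synthesis. No source used here gives the strand setting of the counting, so reads in the overlap cannot be told apart. AGPS stood at 3.30 FPKM before and 1.35 after sorting in H929, and at 0.80 and 2.18 FPKM in KMS28BM. These are the directions of NFE2L2 and of 41.6% of the 9261 genes measured in both lines. AC019080.1, overlapping on the same strand, was at 0.38 and 0.17 FPKM in H929 and 0.03 and 0.08 FPKM in KMS28BM. AC079305.1, overlapping on the opposite strand, was lower after sorting in both lines, at 0.73 and 0.34 FPKM in H929 and 0.34 and 0.21 FPKM in KMS28BM. The part of these overlapping genes in the NFE2L2 values was not tested. NFE2L2 shared 15.6% of its words with other genes, foremost AC019080.1, AC079305.1 and AGPS.

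Around NRF2, 15 genes that control it or pair with it were followed, and 15 were measured in H929 and 14 in KMS28BM. Their median ratio was -0.24 in H929, where BACH1 alone was 2-fold lower on the scale with 1 added, as for all such counts, and 0 were that much higher. It was 0.28 in KMS28BM, where BACH1 and MAFG were 2-fold higher and 0 were that much lower. Over all genes measured, 5.17% were 2-fold lower and 1.59% higher in H929, and 4.13% were higher and 1.12% lower in KMS28BM. The all-gene medians were -0.11 and 0.12. With the GC and length trend removed the medians of this list were -0.10 and 0.10. BACH1, the heme-sensitive repressor of HMOX1, was at 2.51 FPKM before and 0.71 after in H929, and at 0.84 and 3.07 in KMS28BM. MAFG, a small MAF partner of NRF2, was at 8.54 and 4.09 FPKM in H929 and, in KMS28BM, at 1.65 and 5.34 FPKM. Both therefore differed in the same directions as NFE2L2. Other genes of the list did too, as did 41.6% of the 9261 genes measured in both lines. Of the 14 listed genes measured in both lines, 3 were higher in both and 2 lower in both. KEAP1 was among the latter, with ratios of -0.23 in H929 and -0.28 in KMS28BM, which were -0.38 and -0.10 with the trend removed. MAFF and RBX1, higher in both, then turned to -0.06 in H929 and -0.09 in KMS28BM respectively. MAFK, lower in both, turned to 0.02 in KMS28BM. BACH1 is poor in GC, at 38.6%, and its ratios of -1.04 and 1.15 became -0.38 and 0.42 with the trend removed, while those of MAFG, at 57.2% GC, were -0.91 and 1.25 and became -0.91 and 1.28. At the upper end in H929 stood PGAM5, a mitochondrial phosphatase that binds KEAP1, at 18.4 and 28.5 FPKM, and DPP3, a peptidase that binds KEAP1, at 12.95 and 17.02. At the lower end in KMS28BM stood DPP3, at 17.4 and 14.0 FPKM, and SYVN1, a ubiquitin ligase of the endoplasmic reticulum, at 29.96 and 24.37.

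GCLC (ENSG00000001084) and GCLM (ENSG00000023909) encode the catalytic and modifier subunits of glutamate-cysteine ligase, which makes the first, limiting step of glutathione synthesis. GCLC stood at 1.44 FPKM (1.22 to 1.71) before and 0.97 FPKM (0.77 to 1.20) after sorting in H929, and at 0.87 FPKM (0.69 to 1.11) and 2.07 FPKM (1.79 to 2.399) in KMS28BM. GCLM stood at 1.68 FPKM (1.45 to 1.92) and 1.26 FPKM (1.06 to 1.49) in H929, and at 0.63 FPKM (0.49 to 0.81) and 0.89 FPKM (0.73 to 1.09) in KMS28BM. These were the least abundant genes of the group, between 0.63 and 2.07 FPKM, and GCLM did not reach 1 FPKM in KMS28BM. GCLC was 2.37-fold higher after sorting in KMS28BM, or 0.71 on the scale with 1 added. With the trend removed GCLC was at 0.03 in H929 and 0.23 in KMS28BM, and GCLM, with a GC content of 37.3%, turned from -0.24 to 0.45 in H929 and from 0.22 to -0.53 in KMS28BM. The direction of both genes in H929 and of GCLM in KMS28BM thus depended on the trend.

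SLC7A11, the cystine importer that feeds glutathione synthesis, kept its directions but came nearer to 0 with the trend removed. It was at 2.55 FPKM before and 0.41 after in H929 and, in KMS28BM, at 1.36 and 3.29 FPKM, with a GC content of 35.4%. Its ratios of -1.33 and 0.86 were -0.49 and 0.07 with the trend removed. GSR, the reductase that recycles oxidized glutathione, was at 12.8 and 10.8 FPKM in H929 and, in KMS28BM, at 11.3 and 10.8 FPKM. The GSR ratios of -0.22 and -0.06 were -0.07 and -0.36 with the trend removed.

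NQO1 (ENSG00000181019), a quinone reductase often used as the readout of NRF2, was the 1 gene of the group that was higher after sorting in H929. It stood at 10.8 FPKM (10.1 to 11.6) before and 13.1 FPKM (12.3 to 14.0) after. In KMS28BM it stood at 8.35 FPKM (7.65 to 9.11) and 6.54 FPKM (5.95 to 7.18). The ratios, 0.25 and -0.31, ran against those of NFE2L2 in both lines, and with the trend removed they were larger, at 0.47 and -0.68. In KMS28BM 2.72% of genes then had a lower ratio. NQO1 shared 15.3% of its words with other genes.

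TXN (ENSG00000136810) encodes thioredoxin, TXNRD1 (ENSG00000198431) the reductase that recharges it, and SRXN1 (ENSG00000271303) sulfiredoxin, which repairs overoxidized peroxiredoxins. TXNRD1 differed most. It stood at 11.2 FPKM (10.6 to 11.9) before and 9.53 FPKM (8.91 to 10.2) after sorting in H929, and at 17.5 FPKM (16.6 to 18.4) and 34.7 FPKM (33.5 to 35.9) in KMS28BM. The last is a 1.98-fold difference and a ratio of 0.95, just under the 2-fold line, with 94.99% of genes at a lower ratio. With the trend removed it was 0.43, with 91.1% of genes lower, and the H929 ratio turned from -0.21 to 0.17. No 50-base word of TXNRD1 occurs in another gene.

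TXN was abundant in all libraries, at 229 FPKM (223 to 235) before and 201.4 FPKM (195.1 to 207.7) after in H929 and at 246 FPKM (239 to 254) and 309 FPKM (301 to 316) in KMS28BM. SRXN1 was at 29.1 FPKM (27.8 to 30.4) and 24.6 FPKM (23.3 to 25.8) in H929 and at 48.9 FPKM (47.1 to 50.8) and 52.2 FPKM (50.5 to 54.1) in KMS28BM. TXN, TXNRD1 and SRXN1 all stood higher in both KMS28BM libraries than in both H929 libraries. SRXN1 shares 84.7% of its words with the overlapping model AL121758.1, which was listed at no more than 0.018 FPKM.

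Among 24 further enzymes of the thioredoxin, glutathione and peroxide systems, 0 were 2-fold apart in either line. Their median ratio was 0.33 in H929, with 16 of 21 measured genes above 0, and -0.09 in KMS28BM, with 13 of 20 below 0. The medians of all genes measured were -0.11 and 0.12. Of all these genes, 5.17% were 2-fold lower and 1.59% higher in H929, and 4.13% were higher and 1.12% lower in KMS28BM. With the trend removed the list medians were 0.32 and -0.08. TXNIP in H929 was then at 1.13, the 1 gene past 2-fold, where 2.18% of all genes measured were that much higher. Of 20 measured in both lines, 5 were higher after sorting in both (GLRX3, PRDX3, SOD1, SOD2 and TXNIP) and 3 lower in both (GLRX2, GSR and MSRB1). PRDX3 was nearly level in H929, at 0.006. GLRX3, PRDX3 and SOD2 were below 0 in KMS28BM with the trend removed, at -0.22, -0.02 and -0.35. GLRX2 was then above 0 in H929, at 0.09. TXNIP, the inhibitor of thioredoxin, stood at 20.4 and 37.01 FPKM in H929 and, in KMS28BM, at 70.5 and 109.4 FPKM. The peroxiredoxin PRDX2 was at 82.4 and 142.4 FPKM in H929 and, in KMS28BM, at 265 and 182 FPKM, and catalase (CAT) was at 28.03 and 20.37 in H929 and, in KMS28BM, at 3.67 and 6.04 FPKM. GPX4, which reduces lipid peroxides, was at 74.2 and 117.9 FPKM in H929 and, in KMS28BM, at 87.8 and 59.02 FPKM. Its KMS28BM ratio of -0.56 was the lowest of the list there and became -0.10 with the trend removed, where GLRX2 was at -0.50. MSRB1, a methionine sulfoxide reductase, was at 24.8 and 21.1 FPKM in H929.

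**Figure D2:**
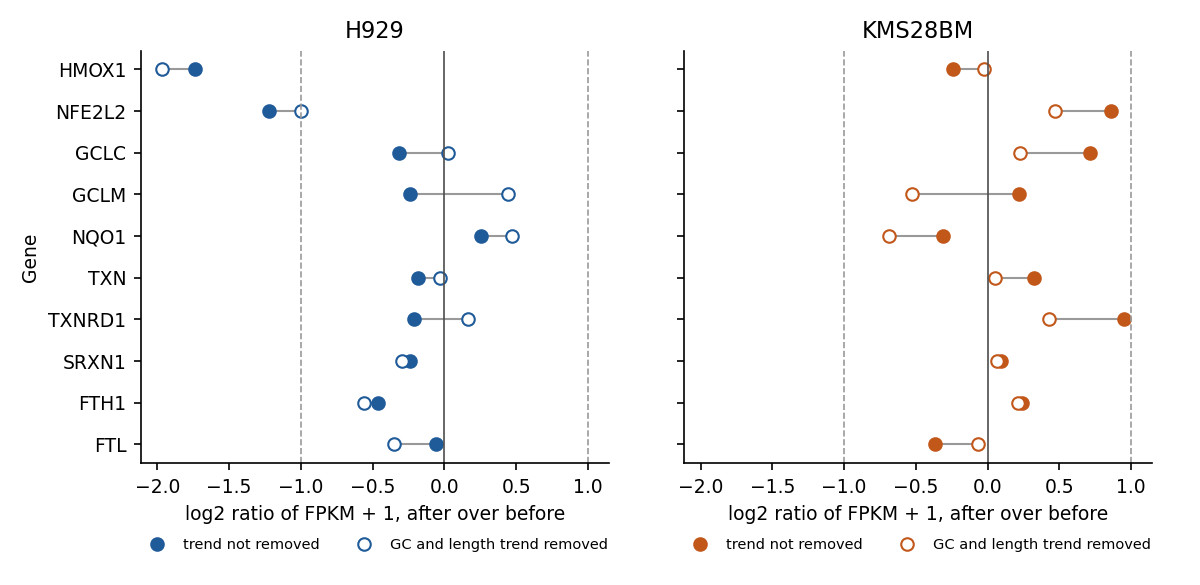
log2 ratio of FPKM plus 1, after over before sorting, for the 10 genes in H929 (left) and KMS28BM (right), filled points before and open points after the GC and length trend was removed; dashed lines mark 2-fold. HMOX1 and NFE2L2 lie beyond 2-fold in H929 without the trend removed, at -1.74 and -1.22, and the other 8 lie within it.

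The ferritin genes were the most abundant of the group. FTL (ENSG00000087086) stood at 2386 FPKM (2365 to 2406) before and 2287 FPKM (2266 to 2308) after sorting in H929, and at 4280 FPKM (4250 to 4310) and 3316 FPKM (3291 to 3341) in KMS28BM. FTH1 (ENSG00000167996) stood at 547 FPKM (539 to 555) and 397 FPKM (389 to 404) in H929, and at 376 FPKM (368 to 383) and 443 FPKM (436 to 451) in KMS28BM. Between 10 and 15 rows of a library were above FTL. The ratios of FTH1 were -0.46 and 0.24 and those of FTL -0.06 and -0.37. Removing the trend gave -0.56 and 0.22 for FTH1 and -0.35 and -0.07 for FTL, and with a trimmed-mean scaling FTL in H929 was at 0.003. The ratios of FTH1 kept their directions under these settings, while the size of the FTL ratios depended on them in both lines.

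Light-chain message exceeded heavy-chain message in every library. The FPKM of FTL was 4.36 times that of FTH1 before and 5.76 times after sorting in H929, and 11.4 and 7.48 times in KMS28BM. The balance was thus higher in both KMS28BM libraries than in both H929 libraries, and it differed in opposite directions with sorting. Removing the GC and length trend brought the ratios of FTL and FTH1 nearer to each other. They were then -0.35 and -0.56 in H929 and -0.07 and 0.22 in KMS28BM, so the size of the difference in balance depended on the trend. Both ferritin genes together made up between 0.804% and 1.28% of the summed FPKM. FTH1 shared 57.4% of its words with other genes, among them its processed pseudogenes and the overlapping BEST1. Its 24 pseudogene rows summed to 79.6 and 49.8 FPKM in H929 and to 54.5 and 47.1 FPKM in KMS28BM, and FTH1P7, FTH1P2, FTH1P11, FTH1P8 and FTH1P23 reached 5 FPKM, as did the FTL pseudogene FTLP3. With the FTH1 pseudogenes added, the FTH1 ratios were -0.49 and 0.19, and the balance of FTL to FTH1 was 3.81 and 5.12 in H929 and, in KMS28BM, 9.95 and 6.76.

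Of 35 other genes of heme and iron handling, 29 were measured in H929 and 28 in KMS28BM. In H929 the metal importer SLC39A14 alone was 2-fold lower, at 11.7 and 5.01 FPKM, and 0 were that much higher. In KMS28BM 0 were 2-fold apart on the scale with 1 added. The shares of all genes measured were 5.17% lower and 1.59% higher in H929, and 4.13% higher and 1.12% lower in KMS28BM. SLC39A14 was at -0.83 with the trend removed, within 2-fold, and SLC25A28, a mitochondrial iron importer, was at -1.01. The median ratios of the list were -0.07 and 0.06, against -0.11 and 0.12 over all genes measured. With the trend removed those of the list were -0.04 and -0.07. NCOA4, the receptor that delivers ferritin to lysosomes, was at 29.9 before and 18.2 FPKM after in H929 and, in KMS28BM, at 13.6 and 24.5 FPKM, ratios of -0.69 and 0.80 that were -0.55 and 0.50 with the trend removed. IREB2, which encodes an iron regulatory protein, was at 3.41 and 1.43 FPKM in H929 and, in KMS28BM, at 0.59 and 1.35 FPKM. Its ratios of -0.86 and 0.57 became -0.18 and -0.17 with the trend removed. The transferrin receptor TFRC, the main route of iron uptake, was higher after sorting in both lines, at 11.3 and 14.5 FPKM in H929 and, in KMS28BM, at 8.08 and 16.4 FPKM. With 1 added the TFRC ratios were 0.34 and 0.94, under 2-fold, and with the trend removed they were 0.85 and 0.31. SLC40A1, the exporter ferroportin, was at 2.27 and 1.16 FPKM in H929 and at the floor of the table in both KMS28BM libraries.

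HMOX2, the constitutive heme oxygenase, was at 10.9 FPKM before and 16.9 after in H929 and, in KMS28BM, at 19.96 and 16.2 FPKM, so that in KMS28BM it exceeded HMOX1 in both libraries. The H929 values of HMOX2 lie in the opposite order to those of HMOX1. BLVRB, a biliverdin reductase, was at 31.6 and 56.8 FPKM in H929 and, in KMS28BM, at 27.7 and 18.8 FPKM. The other biliverdin reductase, BLVRA, was nearly level, at 48.7 and 49.6 FPKM in H929 and, in KMS28BM, at 14.1 and 15.5 FPKM. UROD, of heme synthesis, was at 24.9 and 18.4 FPKM in KMS28BM.

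Of 30 other NRF2 targets, 19 were measured in H929 and 17 in KMS28BM, with medians of -0.03 and -0.06. Those of all genes measured were -0.11 and 0.12. With the GC and length trend removed the medians of the targets were 0.16 and -0.04. Then 11 of 19 were above 0 in H929 and 12 of 17 below 0 in KMS28BM. Without the trend removed, SLC7A11 alone was 2-fold lower in H929 and 0 were that much higher, and in KMS28BM 0 were 2-fold apart. The shares of all genes measured were 5.17% lower and 1.59% higher in H929, and 4.13% higher and 1.12% lower in KMS28BM. BLVRB had the highest ratio of the list in H929, at 0.83, and the lowest in KMS28BM, at -0.54. These were 0.48 and -0.07 with the trend removed, and GSR was lower in KMS28BM, at -0.36. TALDO1, of the pentose phosphate pathway, was at 74.8 and 108.2 FPKM in H929 and, in KMS28BM, at 102.6 and 87.1 FPKM. TKT, of the same pathway, was at 28.9 and 40.1 FPKM in H929 and, in KMS28BM, at 31.5 and 23.7 FPKM. OSGIN1, a stress-induced growth inhibitor, was at 2.43 and 1.64 FPKM in H929, and UGDH, which makes UDP-glucuronate, at 2.10 and 3.48 in KMS28BM. The UGDH ratio there was 0.53, and -0.06 with the trend removed. In the promoter windows of these targets the element core was found in 25.9% of 27. It was found in 15.8% of 19 windows of the NRF2 control list, 12.8% of 39 of the heme and iron list and 0% of 27 of the thioredoxin, glutathione and peroxide list.

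**Figure D3:**
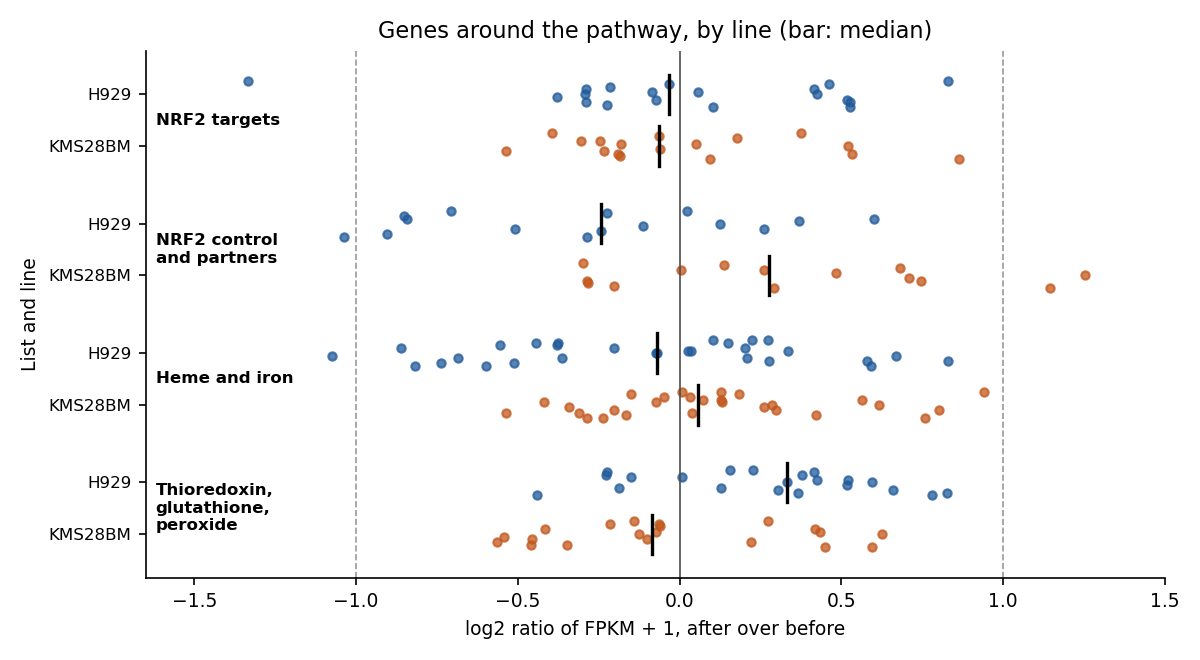
log2 ratio of FPKM plus 1, after over before sorting, for each measured gene of the 4 lists around the group, by line, with a bar at the median and dashed lines at 2-fold. The medians are -0.24 in H929 and 0.28 in KMS28BM for the NRF2 control list, and 0.33 and -0.09 for the thioredoxin, glutathione and peroxide list. With the GC and length trend removed, which is not drawn, they are -0.10 and 0.10, and 0.32 and -0.08.

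Across the group, 10 of 10 genes in H929 and 9 of 10 in KMS28BM were measured. In H929, 2 were 2-fold or more lower (HMOX1 and NFE2L2) and 0 higher, where 5.17% of all 11083 genes measured were that much lower and 1.59% higher. In KMS28BM 0 were 2-fold apart, where 4.13% of 10472 genes were higher and 1.12% lower. With the trend removed HMOX1 alone was 2-fold lower in H929, where 2.27% of genes were lower and 2.18% higher, and 0 were 2-fold apart in KMS28BM, where 1.18% were higher and 1.11% lower. The authors' deposited table marks HMOX1 and NFE2L2 in H929, where 5.12% of the genes measured are marked as down and 1.43% as up. It marks 0 of the group in KMS28BM, where 3.2% are marked as up and 0.783% as down. Without the added 1, NFE2L2 and GCLC passed 2-fold in KMS28BM, a setting for which all genes were not counted. With 0.1 added instead, the same 2 genes were 2-fold higher in KMS28BM, as were 1283 of the 10472 genes measured. Counting error alone did not cover the difference of any of the 10 genes in H929 or of 9 in KMS28BM, all but HMOX1. Differences between cultures are not in these intervals, and fewer cells with a transcript and less of it per cell cannot be told apart in bulk RNA.

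Ratios were below 0 for 9 of the 10 genes in H929 and above 0 for 7 in KMS28BM, with medians of -0.24 and 0.23. Over all genes measured, 58.3% were below 0 in H929 and 59.4% above 0 in KMS28BM. In both lines the ratios followed GC content across protein-coding genes, with Spearman's rho of 0.54 over 9262 genes in H929 and -0.75 over 8922 in KMS28BM, given as a description because genes are not independent. With the trend removed, 6 of the 10 genes were below 0 in H929 and 6 were above 0 in KMS28BM, with medians of -0.16 and 0.06.

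**Figure D4:**
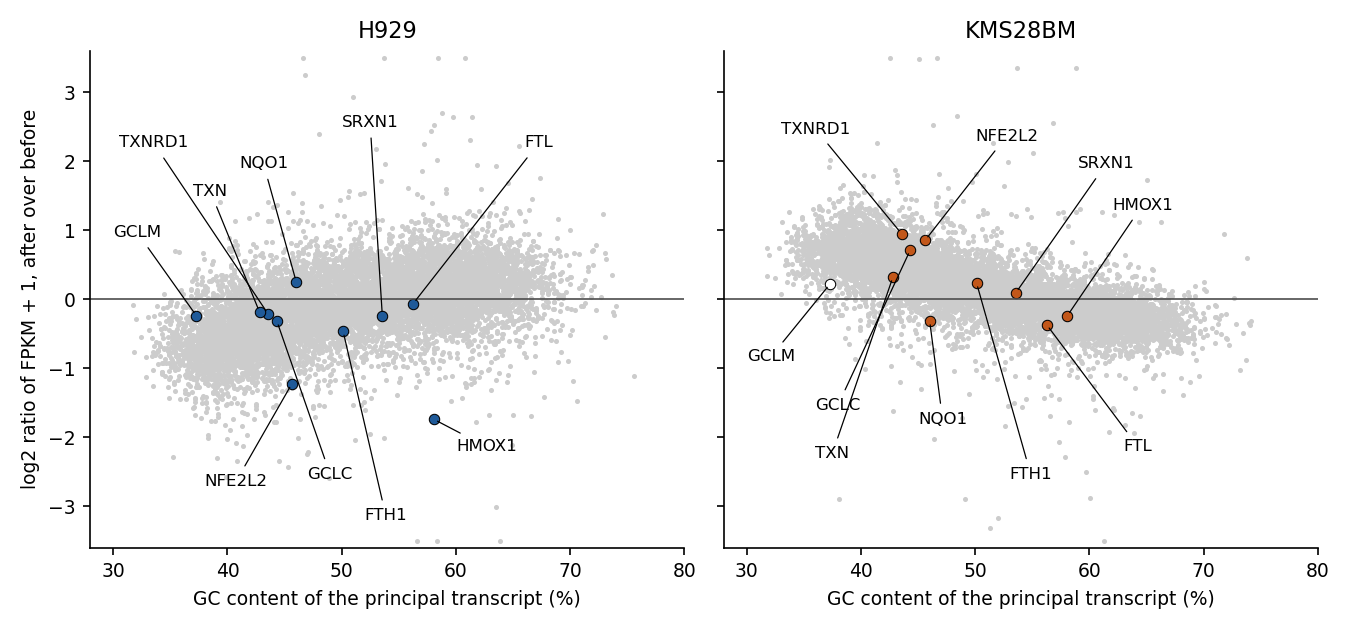
log2 ratio of FPKM plus 1, after over before sorting, against the GC content (%) of the principal transcript in H929 (left) and KMS28BM (right); grey points are measured protein-coding genes, held at the edge beyond 3.5 either way, and coloured points the 10 genes, with GCLM open in KMS28BM because it did not pass the filter. The cloud slopes up in H929 and down in KMS28BM, and HMOX1 at 58.1% GC lies below the cloud in H929 and within it in KMS28BM.

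FTL, FTH1 and TXN were the highest of the group, in that order, in all 4 libraries. HMOX1 ranked 4 in both H929 libraries and 7 and 8 in those of KMS28BM before and after sorting. Neighbours in the order with overlapping counting intervals were TXNRD1 with NQO1 and GCLM with GCLC in H929 before sorting, and NFE2L2 with GCLM and GCLM with GCLC after it. In KMS28BM they were NFE2L2 with GCLC and GCLC with GCLM before sorting, and HMOX1 with GCLC after it. HMOX1, NQO1 and GCLM were higher in both H929 libraries than in both KMS28BM libraries. TXN, TXNRD1, SRXN1 and FTL were higher in both KMS28BM libraries, and GCLC, FTH1 and NFE2L2 overlapped between the lines.

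Whether both lines moved together was tested with limma on all 12294 genes that reached 1 FPKM in at least 1 library, with each line as its own control. None of the 10 genes passed, where 6 genes (0.0488%) rose and 8 (0.0651%) fell at an adjusted p under 0.05, and 184 genes and 1 of the 10, HMOX1, were under 0.05 before adjustment. The HMOX1 ratio was below 0 in both lines, within counting error in KMS28BM, and limma put the joint log2 change at -0.99 with an SE of 0.41 (adjusted p = 0.99999, and between 0.60 and 1 under the alternatives). Joint log2 changes of the other 9 lay between -0.21 for FTL and 0.37 for TXNRD1. With 2 lines the fit had 1 residual degree of freedom per gene before moderation.

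By likeness of level over the 4 libraries, the protein-coding genes nearest to HMOX1 were CPOX, CTSB, MKRN2, ITGB7 and PLAAT2, of 4185 compared. These were limited to genes at 5 FPKM or more in at least 1 library of each line, which HMOX1 itself does not reach in KMS28BM, so genes as low there as HMOX1 were not compared. Likeness was the distance between log2 values of FPKM plus 1 after centring each gene on its own mean, and it was between 1.01 for CPOX and 1.33 for PLAAT2, where the median gene was at 4.64. CPOX, an enzyme of heme synthesis, was at 138.4 and 101.6 FPKM in H929 and, in KMS28BM, at 5.64 and 6.54 FPKM. All 5 were higher in both H929 libraries than in both KMS28BM libraries, as HMOX1 was, which follows from the choice by likeness. Their H929 ratios lay between -0.45 and 0.12, against -1.74 for HMOX1.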

How the data were processed

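Per the labels' protocols, RNA was extracted with Trizol, selected on oligo-dT beads and sequenced in pairs on an Illumina NovaSeq 6000. The submitters' processing notes name Bowtie 0.12.2, HISAT2 2.0 and StringTie 1.3.0, without roles, and a mouse build that goes against the human gene IDs; neither the human build nor the test behind the p-values is given in the sources used here. The authors deposited FPKM per library, their fold ratio, its log2 value, and p-values and q-values. A floor of 0.0001 FPKM stands for undetected genes. The members and gene lists were chosen with earlier results of these data known.

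Ratios are log2 of FPKM plus 1, after over before sorting; the 1 added understates the change of low genes. A gene counted as measured in a line if either library reached 1 FPKM. Fragments came from the worth of 1 fragment, read within 1% in genes with a single transcript, and each principal transcript's length (GENCODE 29, 58394 IDs matched). Counting intervals are exact binomial (ratios) or Poisson (levels). The trend, fitted within each line to protein-coding genes, had cubic terms for GC content and for log2 length; it took up 30.4% of the variance in H929 and 51.3% in KMS28BM. Words of 50 bases were compared on both strands. The shared test was limma 3.58.1 in R 4.3.3, with a trend and Benjamini-Hochberg adjustment, tested on simulated data. Other steps used SciPy 1.17.1, pandas 2.3.3 and numpy 2.4.6 under Python 3.11.15, and figures matplotlib 3.10.9. No libraries held identical values. Named by rule were the members, the 2 highest and 2 lowest genes of each list per line, and 10 genes fixed by name. A gene that this rule names is not reported here.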

Additional observations from a re-analysis of the deposited data

Results flagged for a closer look

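NFE2L2 had ratios of 1.5-fold or more in opposite directions in the lines, -1.22 in H929 and 0.86 in KMS28BM. The difference between the lines was not tested, since each line has 1 library per label. AGPS, whose exons overlap those of NFE2L2 on the opposite strand, stood in the same directions, at 3.30 and 1.35 FPKM in H929 and 0.80 and 2.18 FPKM in KMS28BM. So did AC019080.1, at 0.38 and 0.17 FPKM in H929 and 0.03 and 0.08 FPKM in KMS28BM. AC079305.1 was lower after sorting in both lines, at 0.73 and 0.34 FPKM in H929 and 0.34 and 0.21 FPKM in KMS28BM. The part of these overlapping genes was not tested. With the GC and length trend removed the NFE2L2 ratios were -0.997 and 0.47.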

How the results depend on the processing

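The direction of HMOX1 was kept under all settings tried in both lines. In H929 its ratio was -1.646 with a pseudocount of 5 and -1.97 with the GC and length trend removed, and the other settings moved it by less than its counting interval. Over the settings, 6 genes of the group kept their direction in H929 and 8 in KMS28BM; the exceptions were GCLM, GCLC, TXNRD1 and FTL in H929 and GCLM and SRXN1 in KMS28BM. The group's median in KMS28BM was 0.059 with the trend removed. Members 2-fold lower in H929 numbered 1 with a pseudocount of 5, 1 with the trend removed and 0 at a 4-fold threshold. Members 2-fold higher in KMS28BM numbered 2 with a pseudocount of 0.1, 2 with none (added after the data were seen) and 3 at a 1.5-fold threshold.

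Counts over all genes moved more. Higher and lower in H929, 176 and 573, they were 327 and 1515 with a pseudocount of 0.1, 60 and 79 with 5, 820 and 2079 at 1.5-fold and 23 and 36 at 4-fold, and the lower count was 250 with the trend removed and 309 among genes at 5 FPKM. In KMS28BM, 433 and 117, they were 1283 and 214 with a pseudocount of 0.1, 58 and 36 with 5, 1928 and 451 at 1.5-fold, 26 and 19 at 4-fold and 268 and 66 among genes at 5 FPKM; the higher count was 123 with the trend removed and the lower 71 among protein-coding genes. The shared test called 6 genes higher and 8 lower; the counts were 2 and 2 with a pseudocount of 0.1, 3 and 3 with 5, 2 and 2 with centring on the median, 17 and 18 with a trimmed-mean scaling, 2 and 1 with the trend removed, 0 and 0 without a filter (801 genes under 0.05 before adjustment), 3 and 4 among protein-coding genes, and 0 and 0 without a term for line (20 genes), and 13 were higher at 5 FPKM. The cause of these moves was not tested. No member tested passed under any of them; GCLM, GCLC and NFE2L2 were not tested at 5 FPKM. The shared test pairs the libraries by line, and the labels carry no replicate numbers to pair them otherwise. With 1 library per group none could be left out. Depth limits GCLC, GCLM and NFE2L2, with between 65 and 304 estimated fragments per library, and HMOX1 in KMS28BM, with 112 and 98.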
